A study of Mus musculus with 4 samples.

Results

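The genes described here are 43 mouse genes known to be induced by type I interferon, taken from a list of symbols and looked up as rows of the UMI count table (a UMI, or unique molecular identifier, marks 1 captured RNA molecule). Of the 32285 genes in the table, 42 were members of this list. Mx1 was not a row. The members were grouped by role into 5 RNA-binding IFIT genes, 4 genes of ISG15 conjugation, 6 oligoadenylate synthetase genes, 5 sensors of RNA or DNA, 7 other antiviral effectors, 8 transcription and PARP regulators, 4 Schlafen genes and 3 Phf11 genes. Together they gave 271274 UMIs, or 0.768% of all UMIs.

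Type I interferons are secreted proteins, mainly interferon-alpha and interferon-beta, that bind the receptor made of Ifnar1 and Ifnar2. The receptor signals through the kinases Jak1 and Tyk2 to transcription factors, Stat2 and Irf9 among them, that bind interferon-stimulated response elements in promoters. The induced genes encode proteins that sense foreign nucleic acid, block translation and viral release, or feed back on the pathway. Some of them are also induced by type III interferon, by interferon-gamma or directly by Irf3.

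The mice, 5 wild-type and 5 Il20rb knock-out animals, had been put through a protocol that models eosinophilic esophagitis, and their esophageal cells were analysed. Il20rb encodes a chain shared by the receptors of the IL-20 cytokine family. All 10 received the same exposure: daily ear treatment with 1 nmol MC903 (calcipotriol) plus ovalbumin for 14 days, ovalbumin-containing water for the 4 days that followed, an oral dose of 50 mg ovalbumin on day 15 and again on day 17, and tissue collection on day 18. No untreated animals are among the samples, and the labels do not give the age or sex of the mice. Each animal's cells carried 1 hashtag antibody (B0301 to B0305 for wild-type animals 1 to 5, B0306 to B0310 for knock-out animals 1 to 5), were pooled with those of the other animals, sorted for live CD45+ (immune) cells and run in 2 wells, so that free RNA of a well was shared by all animals. The animal was the replicate.

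The table held 3421 wild-type and 2633 knock-out cells, with 271 to 897 cells and 1805883 to 5666994 UMIs per animal. Il20rb gave only 16 UMIs, 0 to 5 per wild-type and 1 to 2 per knock-out animal, which is too few to check the genotype labels, and whether its 3′ end lies in the deleted part is not given. Ptprc, the gene of CD45, had a UMI in 81.8% to 92.8% of the cells of each animal. Cells were clustered without the members and other interferon-induced genes, 325 genes in all, and clusters were named from lineage markers. Monocyte-like cells (1527), cDC2-like cells (1049, conventional type 2 dendritic cells), macrophage-like cells (974) and neutrophil-like cells (591) were the most numerous classes, and 4 clusters of 476 cells that met no naming rule are called unnamed myeloid. The class called nonclassical monocyte-like (246 cells) rests on 3 markers, and Gm9733, Mgst1 and Hp, which also led a monocyte-like cluster, were among its leading genes. Cells other than monocyte-like and neutrophil-like ones made up 33.8% of the cells of wild-type animal 1 and between 66.4% and 86.9% in the other wild-type animals, and 48.5%, 95.6%, 97.0%, 74.0% and 46.7% in knock-out animals 1 to 5. In sums over all CD45+ cells, more cells of a type and more RNA per cell therefore cannot be told apart.

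Promoter sequence from RefSeq (build GRCm38.p6) matched 34 of the 42 members by symbol. In the 250 bases before the annotated start, the core of the interferon-stimulated response element, searched as GAAA, any 2 bases, GAAA on both strands (TTTC, any 2 bases, TTTC as read on the printed strand; overlapping matches allowed), occurred in 15 of the 34 members (44.1%) and in 936 of all 27025 genes with a promoter entry (3.46%). A match is a description of letters and not a measured binding site. The 6 promoters below belong to genes of both patterns over the cell classes described next: Isg15, Rsad2, Ifit1 and Slfn4, whose levels were highest in neutrophil-like cells, and Bst2 and Phf11b, whose levels were not. Each line gives the last 140 bases before the annotated start on the gene's own strand, and capitals mark the motif, with overlapping matches merged.
Isg15 (chr4:156200819-156200958, minus strand): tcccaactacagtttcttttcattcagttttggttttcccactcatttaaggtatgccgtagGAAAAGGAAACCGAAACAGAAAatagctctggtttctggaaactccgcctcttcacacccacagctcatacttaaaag
Rsad2 (chr12:26456453-26456592, minus strand): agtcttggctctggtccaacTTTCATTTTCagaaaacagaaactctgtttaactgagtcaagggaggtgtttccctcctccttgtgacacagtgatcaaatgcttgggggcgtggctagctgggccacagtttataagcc
Ifit1 (chr19:34640749-34640888, plus strand): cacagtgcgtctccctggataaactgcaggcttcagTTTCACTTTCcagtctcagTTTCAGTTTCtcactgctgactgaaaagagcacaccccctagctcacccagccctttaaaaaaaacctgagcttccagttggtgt
Bst2 (chr8:71537473-71537612, minus strand): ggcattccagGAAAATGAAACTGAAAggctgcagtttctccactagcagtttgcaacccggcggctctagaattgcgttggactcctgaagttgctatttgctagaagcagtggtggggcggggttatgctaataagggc
Phf11b (chr14:59341331-59341470, minus strand): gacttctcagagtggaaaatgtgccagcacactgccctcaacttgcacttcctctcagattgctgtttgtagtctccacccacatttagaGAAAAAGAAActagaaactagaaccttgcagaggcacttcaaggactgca
Slfn4 (chr11:83175046-83175185, plus strand): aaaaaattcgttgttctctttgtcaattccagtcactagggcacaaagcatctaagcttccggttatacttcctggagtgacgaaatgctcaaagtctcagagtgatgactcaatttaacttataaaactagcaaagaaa
Ifit1 held 2 separate matches, Isg15 held 3 and Bst2 2 that ran into each other, and Rsad2 and Phf11b held 1 each. Slfn4 held no match in its 250 bases, and neither did Isg20, Irf7 or Oasl2. Promoters with and without a match occurred both among members highest in neutrophil-like cells and among the others.

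The members were unevenly spread over the lineages. Levels are UMIs of a gene per 1000000 UMIs (CPM) summed over all cells of a class in an animal, for animals with 10 or more cells of the class; since each molecule is tagged at its 3′ end, they are not scaled by gene length. The sum of the 42 members stood at 27540 ± 23452 CPM (SD, n = 7 animals) in neutrophil-like cells and at 12437 ± 6997 CPM (n = 9) in monocyte-like cells. It was 5982 ± 3178 CPM in nonclassical monocyte-like cells (n = 8), 5140 ± 4212 in migratory dendritic cells (n = 5), 4695 ± 3751 in macrophage-like cells (n = 10) and 3442 ± 2903 in cDC2-like cells (n = 10). T-like cells (3079 ± 3131, n = 9), cDC1-like cells (3013 ± 2020, n = 9), unnamed myeloid cells (2496 ± 1826, n = 10), ILC2-like cells (1926 ± 1010, n = 9; group 2 innate lymphoid cells) and cycling cells (1116 ± 126, n = 5) followed. Within animals the place of monocyte-like cells was steadier than these SDs. They were above macrophage-like cells in 9 of 9 animals, above unnamed myeloid cells in 9 of 9 and above nonclassical monocyte-like cells in 8 of 8. Neutrophil-like cells were above monocyte-like cells in 5 of 7 animals. The order of the lower classes was less steady. Macrophage-like cells were above unnamed myeloid cells in 10 of 10 animals and above cDC2-like cells in 8 of 10. Nonclassical monocyte-like cells were above macrophage-like cells in only 4 of 8, migratory dendritic cells in 2 of 5, and T-like cells above cDC1-like cells in 4 of 8. The class means also rest on different sets of animals. Cycling cells had a value only in wild-type animals 2, 3 and 4 and knock-out animals 2 and 3, so their low mean and small SD partly describe that set. Within shared animals they were above ILC2-like cells in 2 of 4, above T-like cells in 2 of 5 and above unnamed myeloid cells in 2 of 5. Monocyte-like cells held 51.4% of all member UMIs with 25.2% of the cells, and neutrophil-like cells held 17.2% with 9.76%.

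**Figure D1:**
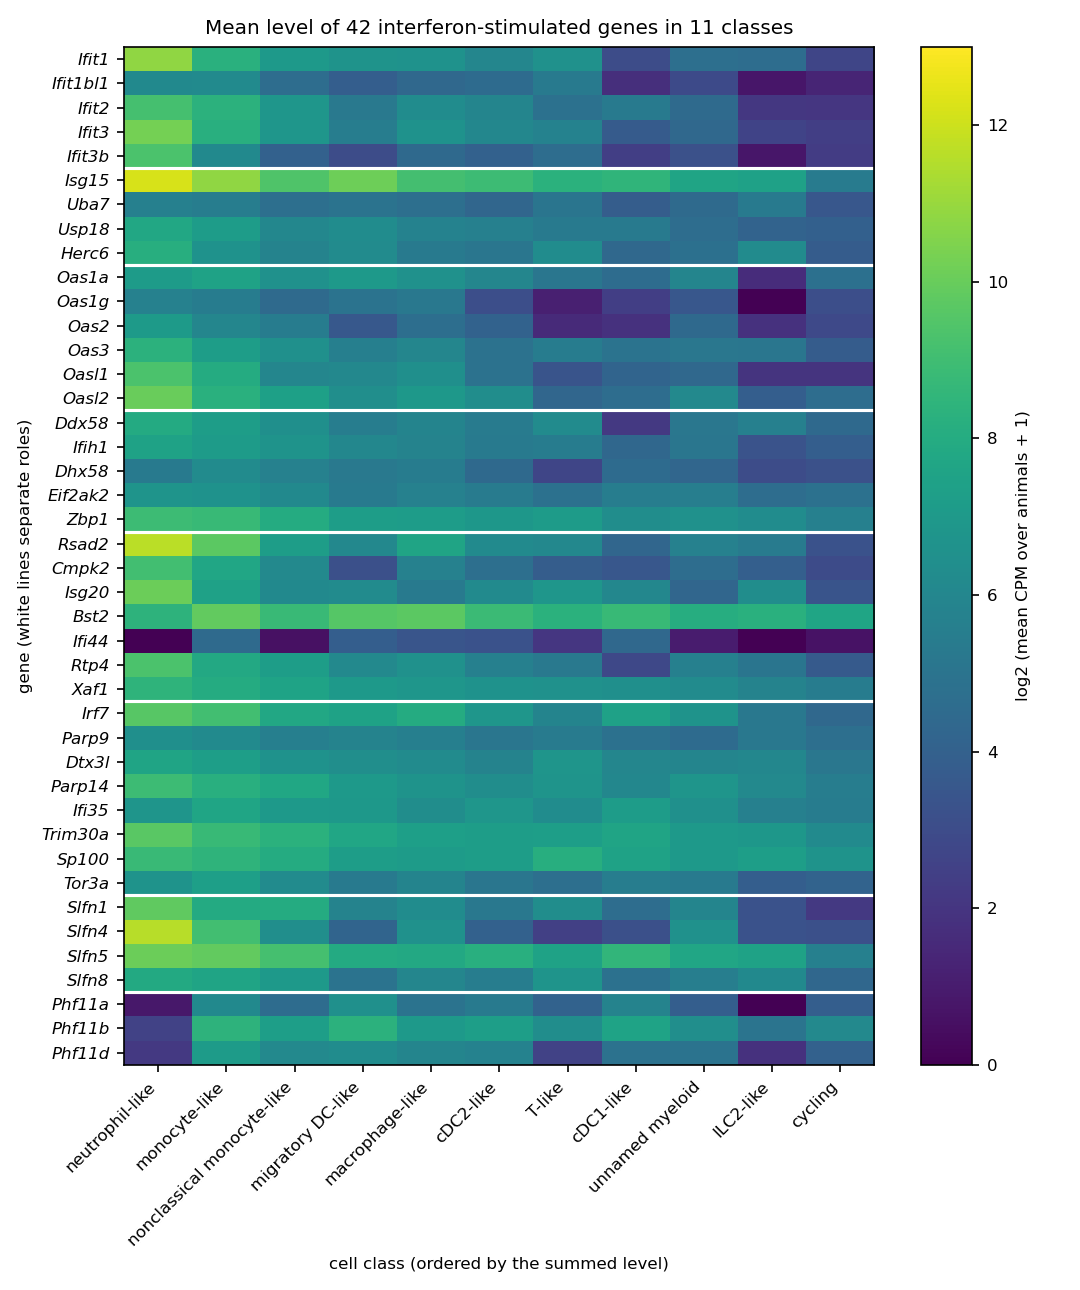
Heat map of the mean level of each of the 42 genes in 11 cell classes, as log2 of the mean CPM over animals plus 1, with genes grouped by role. Most rows are brightest in the neutrophil-like column on the left, while Ifi44 and the 3 Phf11 genes in the bottom rows are darker there than in the monocyte-like column beside it.

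Neutrophil-like cells had the highest mean level for 32 of the 42 members, monocyte-like cells for 9 and migratory dendritic cells for 1, Phf11a. Among IFIT genes, whose products bind viral RNA, Ifit1 stood at 1837 ± 1871 CPM in neutrophil-like cells (n = 7), 304 ± 222 in monocyte-like cells (n = 9) and 131 ± 113 in nonclassical monocyte-like cells (n = 8). Ifit3 stood at 1234 ± 1246, 290 ± 239 and 112 ± 100 CPM in the same classes. Both IFIT genes were above in neutrophil-like cells in 5 of 7 animals, and above in monocyte-like cells, against nonclassical ones, in 8 of 8. Isg15, a ubiquitin-like modifier, stood at 4664 ± 4482 CPM in neutrophil-like, 1859 ± 1334 in monocyte-like and 1115 ± 1367 in migratory dendritic cells (n = 5). Usp18, which removes ISG15 from proteins and dampens the receptor, stood at 223 ± 207 CPM and 146 ± 86.7 CPM in the first 2 of these classes and was higher in neutrophil-like cells in only 4 of 7 animals.

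Of the oligoadenylate synthetase genes, which activate RNase L or resemble the enzymes that do, Oasl2 stood at 1028 ± 476 CPM in neutrophil-like and 303 ± 143 in monocyte-like cells, higher in neutrophil-like cells in 7 of 7 animals. Oas3 stood at 324 ± 236 and 150 ± 85.1 CPM, with 5 of 7. The sensors differed less between the 2 classes. The RNA sensors Ddx58 (RIG-I) and Ifih1 (MDA5) stood at 249 ± 212 and 181 ± 150 CPM in neutrophil-like cells, and at 149 ± 80.4 and 139 ± 70.0 in monocyte-like cells. Zbp1, a sensor of Z-form nucleic acid, stood at 480 ± 440 and 426 ± 240 CPM, and the kinase Eif2ak2 (PKR) at 106 ± 90.9 and 96.1 ± 35.0 CPM; each was higher in neutrophil-like cells in 4 of 7 animals, so their order did not hold beyond the spread between animals.

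Other effectors fell into opposite patterns. Rsad2 (viperin) stood at 3271 ± 3510 CPM in neutrophil-like, 850 ± 601 in monocyte-like and 194 ± 171 in macrophage-like cells, and the exonuclease gene Isg20 at 1094 ± 1025, 173 ± 128 and, in T-like cells, 114 ± 145 CPM. Rtp4 stood at 639 ± 419 CPM in neutrophil-like and 230.2 ± 103 in monocyte-like cells, higher in 7 of 7 animals. Bst2 (tetherin), which holds budding virus at the membrane, was in contrast highest in monocyte-like cells (943 ± 548 CPM) and macrophage-like cells (832 ± 694), a pair that did not differ beyond its spread, with monocyte-like cells above in 4 of 9 animals. The transcription factor gene Irf7, which amplifies interferon production, stood at 794 ± 700 CPM in neutrophil-like, 540.5 ± 382 in monocyte-like and 258 ± 285 in macrophage-like cells.

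The Schlafen genes Slfn1 and Slfn4, regulators of immune cell growth, had their highest mean levels in neutrophil-like cells. Slfn1 stood at 905 ± 254 CPM there, against 258 ± 98.8 in nonclassical monocyte-like and 247 ± 68.6 in monocyte-like cells. It was above monocyte-like cells in 7 of 7 animals. Slfn4 stood at 3104 ± 2359 CPM in neutrophil-like, 536 ± 339 in monocyte-like and 95.6 ± 145 in unnamed myeloid cells. In neutrophil-like cells the SD of Slfn1 over the 7 animals was small beside its mean, whereas the SDs of Ifit1, Rsad2 and Isg15 were close to their means.

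The 3 Phf11 genes, which encode PHD finger proteins, and Ifi44 were nearly missing from neutrophil-like cells. Over the same 7 animals Phf11b stood at 4.89 ± 7.28 CPM in neutrophil-like and 325 ± 247 in monocyte-like cells, Phf11a at 0.790 ± 2.09 and 71.2 ± 59.7, and Phf11d at 3.42 ± 6.23 and 134 ± 108. Ifi44 gave 0 UMIs in neutrophil-like cells, which allows a level of up to 2.53 CPM (3 counts over the group, counting error only), against 18.1 ± 17.8 CPM in monocyte-like cells. Each of the 4 was higher in monocyte-like cells in 7 of 7 animals, as were Bst2, Dhx58 and Ifi35. The highest Phf11a level was in migratory dendritic cells, at 92.2 ± 48.2 CPM (n = 5), followed by monocyte-like (72.2 ± 60.4, n = 9) and cDC1-like cells (54.7 ± 48.3, n = 9). The Phf11, Oas1, Slfn and Ifit3/Ifit3b genes belong to families of related genes, and how well UMIs were split within each family was not tested.

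**Figure D2:**
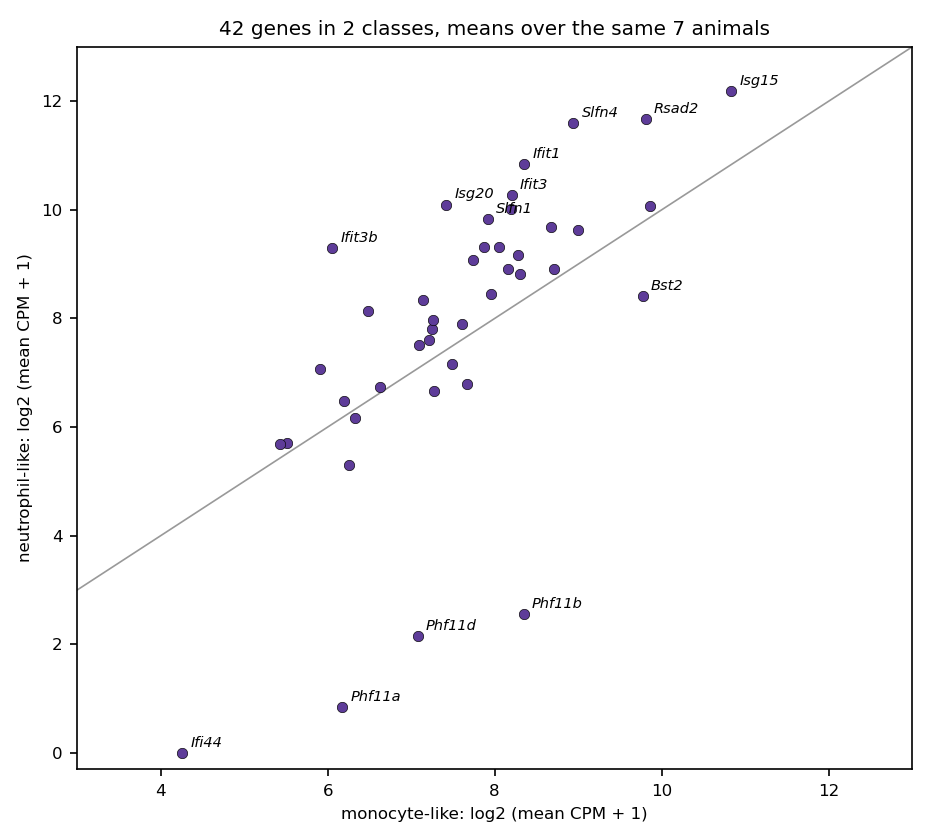
Each point is 1 of the 42 genes, with its mean level over the same 7 animals in monocyte-like cells (horizontal) and neutrophil-like cells (vertical), as log2 of CPM plus 1; the line marks equal levels. Ifit3b, Isg20, Slfn4 and Ifit1 lie farthest above the line, and Phf11b, Phf11a, Phf11d and Ifi44 lie far below it.

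The scale matters for the neutrophil-like class, because its cells held few UMIs: 1742 ± 324 per cell (n = 7 animals) against 5507 ± 595 in monocyte-like cells (n = 9). Counted per cell and not as CPM, neutrophil-like cells held 53.4 ± 48.6 member UMIs and monocyte-like cells 69.8 ± 41.6, and neutrophil-like cells were above in only 1 of 7 animals. The members thus made up a larger part of a smaller RNA content in neutrophil-like cells. Lyz2, a lysozyme gene of myeloid cells, had a UMI in 16.9% of ILC2-like cells (median 3283 UMIs) and 17.3% of T-like cells (median 3113 UMIs), against 97.2% of monocyte-like cells (median 5726 UMIs). The part of free RNA in the low member levels of lymphoid cells was not tested.

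Single cells of 1 class also differed. Each cell was thinned at random to 1000 UMIs so that depth was equal, and the member UMIs were counted. Over all cells of a class the median was 36 of 1000 in neutrophil-like cells (10th percentile 4, 90th percentile 73, highest 132) and 14 in monocyte-like cells (1, 33 and 85). Of the 591 neutrophil-like cells 317 came from wild-type animal 1. The medians of the animals were 40, 22, 2, 3 and 4 in wild-type animals 1 to 5 and 48.5 and 61 in knock-out animals 1 and 5, with a mean of 25.8 ± 24.3 (SD, n = 7). In monocyte-like cells the mean of the animals' medians was 10.8 ± 7.98 (n = 9). Over all cells the median was 4 in nonclassical monocyte-like cells and 1 in macrophage-like, cDC2-like, unnamed myeloid, T-like and ILC2-like cells. Within an animal, the 10% of cells with the most held 42.7 ± 8.03% of the member UMIs in macrophage-like, 45.4 ± 11.96% in cDC2-like and 44.9 ± 10.1% in unnamed myeloid cells (n = 10 each), against 31.7 ± 12.04% in monocyte-like (n = 9) and 30.1 ± 12.1% in neutrophil-like cells (n = 7). With cells of all animals put together these shares were 53.7%, 55.8%, 54.0%, 26.6% and 23.6%, a wider contrast between the classes. Such a share also depends on the level: it was 45.1 ± 9.07% in cycling cells, with a mean of only 1.03 member UMIs per 1000 (n = 5). The variance over the mean within an animal gave another order. It was 10.7 ± 6.53 in neutrophil-like, 7.81 ± 2.57 in monocyte-like, 7.56 ± 4.00 in macrophage-like, 6.84 ± 4.52 in unnamed myeloid and 6.33 ± 3.85 in cDC2-like cells. The shares therefore do not rank the classes by heterogeneity. A median neutrophil-like cell had 15 different members among its 1000 UMIs, a monocyte-like cell 10 and a macrophage-like cell 1.

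**Figure D3:**
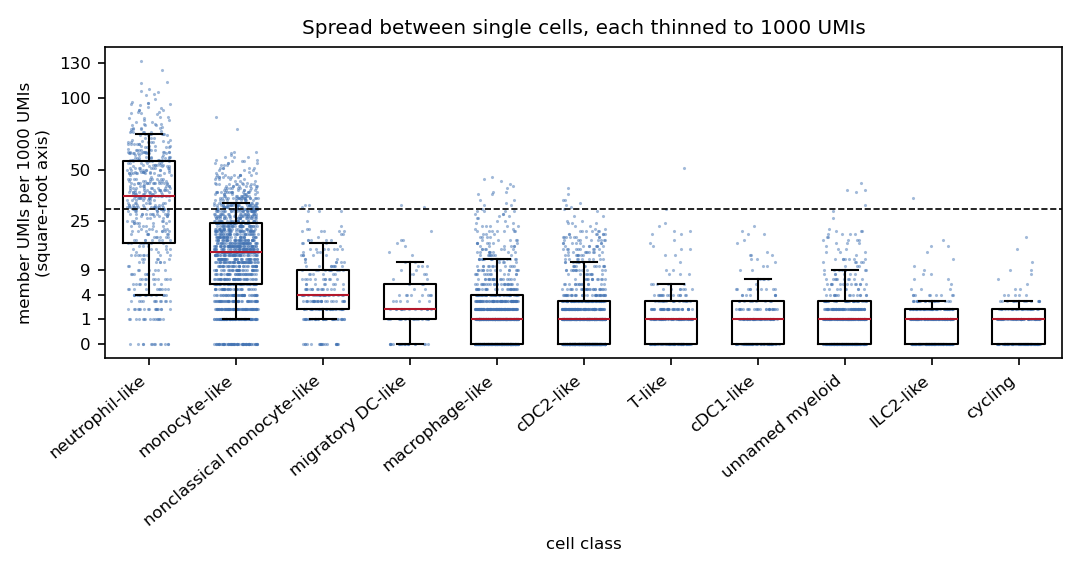
Member UMIs in each cell after thinning to 1000 UMIs, by cell class, on a square-root axis; boxes span the quartiles with the median in red, whiskers the 10th to 90th percentiles, dots are cells of all animals together, and the dashed line is the 90th percentile of all cells (30 UMIs). The box of neutrophil-like cells crosses the line, while in macrophage-like and unnamed myeloid cells only scattered cells lie above it.

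At or above the 90th percentile of all cells, 30 of 1000 UMIs, lay 620 cells, and 152 cells lay within 2 UMIs of that value, so it cuts a continuous range and defines no cell type. Of the 620 cells, 359 were neutrophil-like and 224 monocyte-like, with 16 macrophage-like, 8 cDC2-like and 5 unnamed myeloid cells. This split mostly describes a few animals. Wild-type animals 1 to 5 gave 240, 37, 1, 2 and 8 of the 620 cells, and knock-out animals 1 to 5 gave 157, 1, 0, 19 and 155. Wild-type animal 1 alone gave 223 of the 359 neutrophil-like cells. Differences between animals accounted for 32.6% of the variance between neutrophil-like cells, 31.5% between monocyte-like cells and 18.4% between unnamed myeloid cells, and the rest lay between cells of 1 animal. With the members split into 2 sets of alternate genes, the thinned UMI counts of the sets, centred within animal, correlated over cells with Pearson's r = 0.70 in 591 neutrophil-like, 0.64 in 1527 monocyte-like, 0.72 in 974 macrophage-like and 0.68 in 476 unnamed myeloid cells; cells of 1 class share libraries and depth, so this is a description.

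Within the 1527 monocyte-like cells, Rsad2 (r = 0.60) and Isg15 (r = 0.53) followed the other members most closely, and Slfn1 (r = 0.06), Parp9 (r = 0.08) and Dhx58 (r = 0.08) least. Of the 2522 other genes with a UMI in 5% or more of these cells, the chemokine gene Cxcl10 was most like the summed members (r = 0.52). Then came Ms4a4c (0.38), Plac8 (0.38), Mndal (0.37), Ifi205 (0.36), H3f3b (0.34), the Fc receptor gene Fcgr1 (0.34), Ccl12 (0.32), Ifi209 (0.32) and Ccl4 (0.31). These values are over single cells of 1 class with sparse counts, and low values may reflect few UMIs.

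Animals differed strongly within both genotypes. Over all CD45+ cells the sum of the 42 members stood at 14489, 4166, 1480, 2904 and 3110 CPM in wild-type animals 1 to 5 and at 14138, 1906, 1152, 6901 and 16997 CPM in knock-out animals 1 to 5. Wild-type animal 1 and knock-out animals 1 and 5 were high, knock-out animal 3 was lowest, and the groups overlapped. Knock-out animal 5 had the highest sum in 8 of its 10 classes with a value, knock-out animal 1 was among the top 3 in 9 of 9 and wild-type animal 1 in 7 of 9. These 3 animals also had the largest shares of monocyte-like and neutrophil-like cells combined; without these 2 classes the sums were 6332, 2100, 1284, 1735 and 2144 CPM in wild-type and 7376, 1712, 1078, 3478 and 8875 CPM in knock-out animals, in which the same 3 animals were high. Their monocyte markers (11 genes, 0 at 0) were also highest among the remaining cells of 2 large classes. The markers summed to 6125, 5170 and 5157 CPM in macrophage-like cells of wild-type animal 1 and knock-out animals 1 and 5, against 3565 to 4460 CPM in the other 7 animals. In cDC2-like cells they summed to 2488, 2577 and 3157 CPM against 1511 to 2187 CPM, and their part in the result was not tested.

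**Figure D4:**
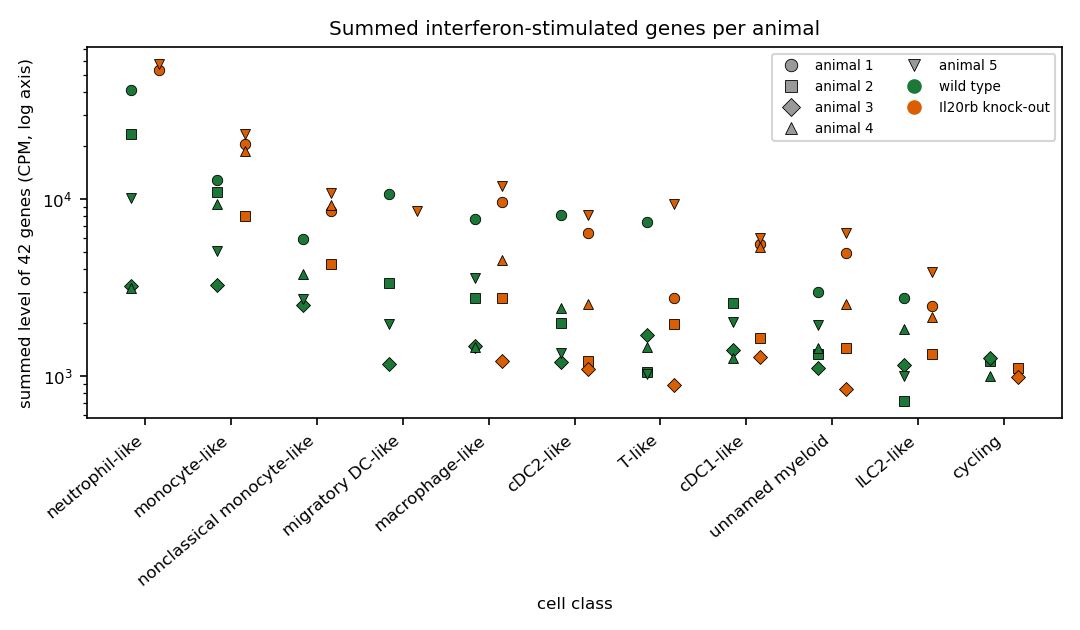
Summed level of the 42 genes in each animal (CPM, log axis) by cell class, with wild-type animals in green, knock-out animals in orange and the animal number as symbol. Where they have a point, wild-type animal 1 and knock-out animals 1 and 5 are mostly near the top of their genotype, and the genotypes overlap in every class with both except neutrophil-like cells, where 2 knock-out animals have a point.

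The first comparison of the genotypes used all CD45+ cells. Here 42 of 42 members had a positive log2 fold change of knock-out over wild type (51.2% of all 10175 genes tested did), with a median of 0.66 against 0.01 over all genes. None passed the test: 0 of 42 members were called by edgeR's quasi-likelihood test at a Benjamini-Hochberg adjusted p under 0.05, where 0.0393% of genes were called. Of the members 0 had an unadjusted p under 0.05 (6.85% of genes) and 0 were called by DESeq2 (0.727% of genes). The spread between animals was as large as the difference between genotypes.

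The members with the lowest p in all CD45+ cells were Phf11b, Phf11a and Bst2. Phf11b stood at 227, 87.8, 55.1, 112 and 86.0 CPM in wild-type and at 383, 81.0, 63.1, 242 and 508 CPM in knock-out animals 1 to 5 (log2 1.25 ± 0.68 (SE), edgeR adjusted p = 0.814). Phf11a stood at 56.7, 17.3, 10.2, 21.3 and 15.6 CPM and at 91.6, 15.6, 11.1, 60.6 and 119 CPM (log2 1.38 ± 0.76, edgeR adjusted p = 0.817). Bst2 stood at 790, 341, 237, 334 and 295 CPM and at 1269, 346, 182, 740.5 and 1396 CPM (log2 1.05 ± 0.63, edgeR adjusted p = 0.836). For each gene knock-out animals 1, 4 and 5 were above 4 of the 5 wild-type animals or all of them, and knock-out animal 2 lay among the wild-type animals, as did knock-out animal 3 except for Bst2, where it was below all of them. By role, the median log2 fold change ran from 0.45 for the Schlafen genes to 1.35 for the Phf11 genes. Without monocyte-like and neutrophil-like cells, again 42 of 42 members were positive (50.3% of 9531 genes), with a median log2 of 0.82. Here 0 were called by edgeR (0.441% of genes) or had an unadjusted p under 0.05 (9.66% of genes), with 0 called by DESeq2 (1.29% of genes).

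In monocyte-like cells the comparison had 5 wild-type and 4 knock-out animals, because knock-out animal 3 had only 7 such cells, and knock-out animal 2 entered with 16. The sum of the 42 members stood at 12875, 10890, 3257, 9319 and 5104 CPM in wild-type animals and at 20536, 7982, 18774 and 23193 CPM in knock-out animals 1, 2, 4 and 5. Knock-out animals 1, 4 and 5 lay above every wild-type animal and knock-out animal 2 lay among them. All 42 members had a positive log2 fold change (47.7% of 5203 genes did), with a median of 1.04 against -0.02 over all genes, and 30 of the 42 had an unadjusted p under 0.05 (16.7% of genes). By edgeR's quasi-likelihood test 0 of the 42 were called after Benjamini-Hochberg adjustment, where 0.442% of genes were. DESeq2 called 8 of the 42 and 1.6% of genes, and edgeR without wild-type animal 1 called 14 of the 42 and 5.37% of genes, the largest number on leaving out 1 animal. Without knock-out animal 2 edgeR called 2, Ifih1 and Oas1a, and 1.82% of genes.

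By role, the log2 fold changes in monocyte-like cells ran from 0.92 to 1.89 for the 5 IFIT genes (median 1.81), from 1.57 to 1.67 for the 3 Phf11 genes, from 0.95 to 1.58 for the 4 ISG15 conjugation genes and from 0.86 to 1.65 for the 7 other effectors. They ran from 0.73 to 1.31 for the oligoadenylate synthetases, from 0.64 to 1.14 for the sensors, from 0.68 to 1.53 for the regulators and from 0.59 to 1.53 for the Schlafen genes. The 3 members of lowest p were Ifit3b, Sp100 and Oas2. Ifit3b stood at 44.1, 73.3, 16.4, 38.3 and 10.4 CPM in wild-type and at 148, 39.5, 134 and 129 CPM in knock-out animals 1, 2, 4 and 5 (log2 1.89 ± 0.43, edgeR adjusted p = 0.0915). Sp100, a nuclear body protein, stood at 373, 266, 164, 270 and 155 CPM and at 446, 369, 554 and 529 CPM (log2 1.04 ± 0.26, edgeR adjusted p = 0.0919). The oligoadenylate synthetase gene Oas2 stood at 72.2, 50.1, 22.5, 40.3 and 36.4 CPM and at 92.1, 65.9, 80.2 and 101 CPM (log2 1.02 ± 0.27, edgeR adjusted p = 0.0945). In each of the 3 genes the only overlap was knock-out animal 2 with 1 or more wild-type animals. Every knock-out animal was above every wild-type animal for 1 of the 42 members, Trim30a, an interferon-induced TRIM protein, and for 1.79% of genes. Trim30a stood at 479, 351, 139, 332 and 259 CPM and at 605, 540.04, 556 and 698 CPM.

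**Figure D5:**
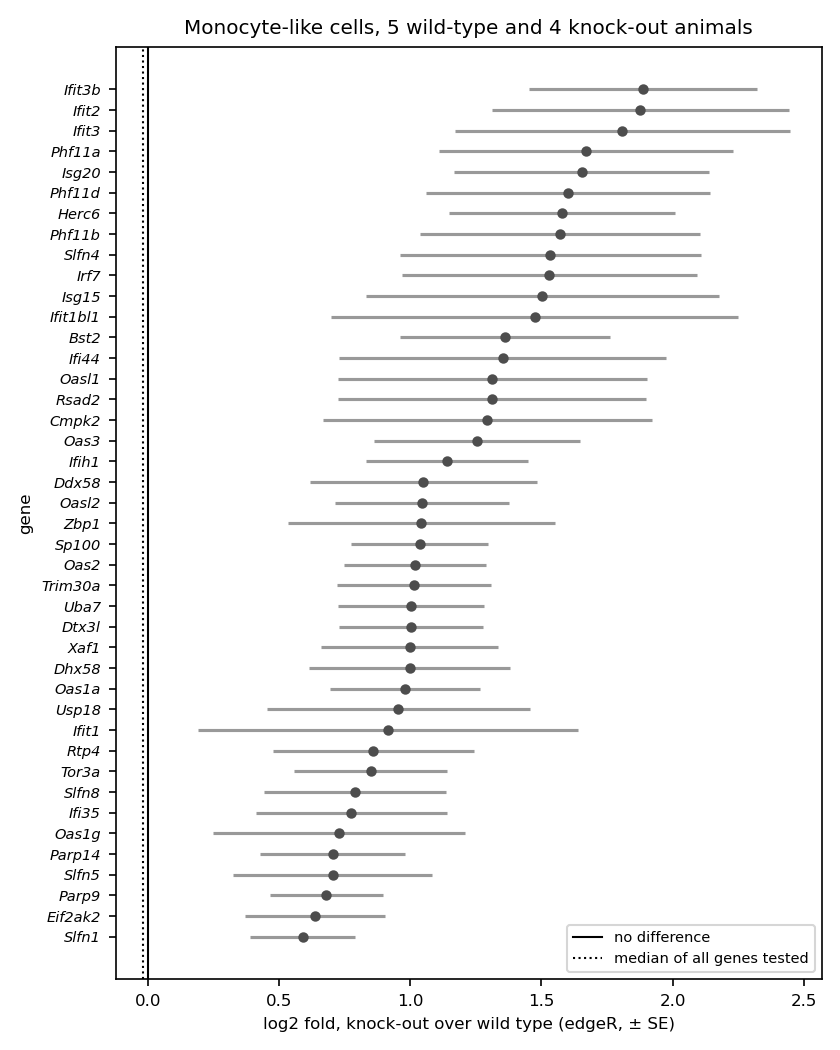
Log2 fold change of knock-out over wild type in monocyte-like cells for each of the 42 genes, with its standard error, from edgeR on sums per animal (5 wild-type, 4 knock-out). All points lie to the right of 0 and of the median of all genes (-0.02), from 0.59 for Slfn1 to 1.89 for Ifit3b, and none passed the adjusted threshold.

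Neutrophil markers in monocyte-like cells summed to between 101 and 1055 CPM in wild-type animals, highest in wild-type animal 2, and between 105 and 218 CPM in knock-out animals, with 1 of 13 markers at 0; their part in the result was not tested.

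With the cells of all animals of a genotype put together, a different cluster was the largest of the monocyte-like class in each genotype. Knock-out animals 1 to 5 gave 384, 16, 7, 104 and 312 monocyte-like cells, so the knock-out shares mostly follow animals 1 and 5. Cluster 7, led by Vcan, Dmkn and Chil3, was the largest among wild-type monocyte-like cells, with 23.7% of them and 7.17% of the knock-out ones. It held 22, 15, 44, 28 and 58 cells of wild-type animals 1 to 5, out of 277, 95, 93, 89 and 150. Of knock-out animals 1 to 5 it held 28, 3, 3, 6 and 19 cells. Clusters 4 and 11 each had 11.4% of the wild-type cells, and 62 of the 80 wild-type cells of cluster 4 came from wild-type animal 1. Cluster 0, led by Cxcl10, Ly6c2 and Ccl12, was the largest among knock-out cells (19.1%, against 6.82% in wild type), followed by cluster 8, led by Ifi213 and Ly6c2 (18.6% against 6.68%). The mean number of member UMIs per 1000 was 6.06 in cluster 7, 25.8 in cluster 0 and 18.2 in cluster 8. Within clusters the knock-out values were also the higher ones: of 9 clusters with animals of both genotypes, the knock-out mean was above in 9 and every knock-out animal above every wild-type animal in 7. In cluster 7 the 5 wild-type animals lay between 2.34 and 8.09 member UMIs per 1000, and knock-out animals 1 and 5 at 10.4 and 13.4. In cluster 15 wild-type animals 1 and 2 had 15.5 and 14.2, and knock-out animals 1, 4 and 5 had 26.0, 26.0 and 24.6. These within-cluster values rest on 1 to 5 wild-type and 1 to 3 knock-out animals, never knock-out animals 2 or 3, and were not tested. The same few animals recur across the clusters, so the 9 clusters are not separate comparisons. With so few animals a full separation arises easily, and the share of all genes separated in this way was not counted.

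The share of monocyte-like cells at or above 30 member UMIs per 1000 was 4.69%, 3.16%, 1.08%, 2.25% and 0.667% in wild-type animals 1 to 5, and 23.2%, 6.25%, 14.4% and 31.7% in knock-out animals 1, 2, 4 and 5. The groups did not overlap, though the 6.25% of knock-out animal 2 was 1 of 16 cells. At the 95th percentile of all cells, 42 UMIs, they did overlap: the share was 1.05% in wild-type animal 2 and 0% in the other 4 wild-type animals, and 8.59%, 0%, 1.92% and 9.29% in the 4 knock-out animals.

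Neutrophil-like cells had 10 or more cells in all 5 wild-type animals but in only 2 knock-out animals, so the genotypes were not tested. The sum of the 42 members stood at 41439, 23333, 3211, 3147 and 10177 CPM in wild-type animals 1 to 5 and at 53428 and 58043 CPM in knock-out animals 1 and 5. Isg15 stood at 7767, 2977, 272, 110 and 1552 CPM in wild-type animals and at 9065 and 10906 CPM in these 2 knock-out animals. Rsad2 stood at 4621, 1556, 381, 0 and 627 CPM and at 7137 and 8578 CPM. Both genes spanned a wide range among wild-type animals alone, and the 2 knock-out animals are those that were high in the other classes too. Slfn1 stood at 694, 960, 435, 1159 and 1098 CPM and at 975 and 1017 CPM, an overlap in which wild-type animal 4, with 12 neutrophil-like cells and no UMI of Ifit1 or Rsad2, was highest. The share of neutrophil-like cells at or above 30 member UMIs per 1000 was 70.3%, 40.7%, 0%, 0% and 11.4% in wild-type animals and 86.8% and 78.0% in knock-out animals 1 and 5.

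In nonclassical monocyte-like cells (4 against 4 animals, without wild-type animal 2 and knock-out animal 3), 22 members passed the filter on low counts, 22 of 22 were positive (48.6% of 1595 genes), and 13 had an unadjusted p under 0.05 (8.97% of genes). By edgeR 0 of the 22 were called, where 0.0% of genes were, and DESeq2 called 3 (0.627% of genes). Every knock-out animal was above every wild-type animal for 3 members, Oasl2, Ifih1 and Phf11b, and for 3.13% of genes. Oasl2, the member of lowest p here and named after its values were seen, stood at 118, 56.1, 109 and 75.3 CPM in wild-type animals 1, 3, 4 and 5 and at 242, 119, 299 and 330 CPM in knock-out animals 1, 2, 4 and 5 (log2 1.44 ± 0.31, edgeR adjusted p = 0.118). Without knock-out animal 2, edgeR called 9 of 32 members and 1.61% of 1868 genes. In classes where fewer than 42 members passed the filter, a member that is high in 1 genotype passes more readily, so the counts describe the members that passed and support nothing about the rest. The summed neutrophil markers in this class ran from 112 to 2334 CPM in wild-type and from 119 to 263 CPM in knock-out animals, with 2 of 13 markers at 0, and their part in the result was not tested.

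In macrophage-like cells (5 against 5 animals) 37 members passed the filter and 37 were positive (48.6% of 5838 genes), with a median log2 of 0.81. Of these 6 had an unadjusted p under 0.05 (4.61% of genes), and 0 were called by edgeR (0.0685% of genes, 0.0171% as higher in knock-out cells) or DESeq2 (0.0856% of genes). The PARP gene Parp9 stood at 42.02, 37.6, 37.0, 26.8 and 38.8 CPM in wild-type and at 55.1, 53.7, 29.4, 74.4 and 89.9 CPM in knock-out animals 1 to 5 (log2 0.74 ± 0.25, edgeR adjusted p = 0.910). Uba7, the ISG15-activating enzyme, had a log2 of 1.00 ± 0.35 (edgeR adjusted p = 0.910) and Oas2 of 0.86 ± 0.35 (edgeR adjusted p = 0.979). All 3 overlapped between the genotypes, with knock-out animal 5 highest. That animal also had the highest summed neutrophil markers among macrophage-like cells, 327 CPM against 31.8 to 92.3 CPM in the other 9 animals, with 1 of 13 markers at 0, and their part in the result was not tested. In cDC2-like cells 35 of 36 members were positive (50.4% of 6379 genes), 0 had an unadjusted p under 0.05 (4.8% of genes) and 0 were called by edgeR (0.0627% of genes) or DESeq2 (0.0784% of genes). Without knock-out animal 5 only 22 of the 36 were positive.

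Unnamed myeloid cells, with 10 or more cells in every animal, had the lowest levels among the larger myeloid classes. The sum of the 42 members stood at 2984, 1326, 1114, 1438 and 1950 CPM in wild-type and at 4925, 1431, 848, 2536 and 6408 CPM in knock-out animals 1 to 5, with knock-out animals 1 and 5 above every wild-type animal and knock-out animal 3 below all. Of 19 members that passed the filter, 19 were positive (51.4% of 3718 genes), 1 had an unadjusted p under 0.05 (6.02% of genes) and 0 were called by edgeR (0.0538% of genes) or DESeq2 (0.0538% of genes). Bst2 stood at 220.3, 146, 191, 154 and 227 CPM in wild-type and at 380.3, 317, 162, 366 and 531 CPM in knock-out animals (log2 0.93 ± 0.25, edgeR adjusted p = 0.536). Knock-out animal 3 alone kept the groups from separating, and without it Bst2 was called (log2 1.11 ± 0.18, edgeR adjusted p = 0.00790; 0.0771% of 3893 genes were). Xaf1, a gene of apoptosis control, had a log2 of 1.11 ± 0.52 (edgeR adjusted p = 0.790) and Zbp1 of 1.11 ± 0.64 (edgeR adjusted p = 0.814).

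In cDC1-like cells 1 member, Phf11a, was past the threshold, in a test that it entered through its level in knock-out cells. In these cells (4 wild-type and 5 knock-out animals), which present antigen to cytotoxic T cells, it stood at 22.3, 28.5, 0 and 7.70 CPM in wild-type animals 2 to 5 and at 125, 76.4, 21.4, 107 and 105 CPM in knock-out animals 1 to 5. Its log2 fold change was 2.30 ± 0.47 (edgeR adjusted p = 0.0338), although knock-out animal 3 lay among the wild-type animals. It was 1 of 12 members that passed the filter, where 0.0488% of 2049 genes were called as higher in knock-out cells and 0.0976% in either direction; 12 of 12 members were positive (51.2% of genes) and 4 had an unadjusted p under 0.05 (5.71% of genes). The call was lost with DESeq2, with the non-robust edgeR fit, without the highest doublet scores and on leaving out any 1 of wild-type animals 2 to 5, with adjusted p between 0.000522 and 0.230 over the alternatives. On leaving out knock-out animal 1, 2, 4 or 5 the gene no longer passed the filter on low counts. The fit without that filter gave the lowest adjusted p of the alternatives, 0.000522 by edgeR. In that fit 3 of 42 members and 0.102% of 11822 genes were called. The gene was singled out by its call in the main fit on the same cells, so the fit without the filter is not separate support. Monocyte markers in this class summed to between 802 and 1776 CPM in wild-type and between 834 and 2353 CPM in knock-out animals, and 7 of 13 neutrophil markers were at 0 in it.

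Few members could be tested in lymphoid cells. In ILC2-like cells 5 of 6 were positive (50.7% of 1617 genes) and in T-like cells 3 of 3 (50.2% of 1116 genes). EdgeR called 0 in either (0.309% of genes, 0.186% as higher in knock-out cells, and 0.0%), as did DESeq2 (0.371% and 0.179% of genes). In the 2 classes 1 and 0 members had an unadjusted p under 0.05 (9.89% and 7.89% of genes). In the other comparisons no member had every knock-out animal above every wild-type animal: 0 of 42 in all CD45+ cells (0.334% of genes), 0 of 42 without monocyte-like and neutrophil-like cells (0.399%), 0 of 37 in macrophage-like (0.428%), 0 of 36 in cDC2-like (0.329%), 0 of 12 in cDC1-like (0.39%), 0 of 19 in unnamed myeloid (0.484%), 0 of 6 in ILC2-like (2.35%) and 0 of 3 in T-like cells (0.896%).

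Whether the genotype difference itself differed between classes was tested as an interaction in edgeR with the animal as a term. Against macrophage-like cells the difference was 0.01 larger in monocyte-like cells (median log2 over 42 members), against cDC2-like cells 0.37 (42 members) and against ILC2-like cells 0.75 (41 members). By adjusted p 0 members were called in each of the 3 comparisons (0.0%, 0.137% and 0.176% of genes), and 1, 5 and 6 members had an unadjusted p under 0.05 (5.95%, 9.05% and 7.6% of genes). A difference in response between classes was not shown. DESeq2 was not run for the interaction.

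The ligands of the pathway were close to undetected in these sorted CD45+ cells. No cluster was named as plasmacytoid dendritic cells, and cells sorted away were not measured. Of 20 type I and III interferon genes looked up, Ifnb1 gave 79 UMIs in 24 cells, Ifnab and Ifnk gave 1 UMI each, and the other 17 gave 0. The Ifna genes are a family of related genes, and how well their UMIs could be counted was not tested. Monocyte-like cells held 73 of the 79 Ifnb1 UMIs, in 20 of 1527 cells (1.31%, cells of all animals put together). Knock-out animal 1 alone gave 56 UMIs, in 12 cells, and wild-type animals 1 to 5 gave 3, 5, 0, 0 and 4. Ifnb1 was therefore too sparse for a comparison of genotypes. The monocyte-like cells with an Ifnb1 UMI had a median of 30 member UMIs per 1000, and those without one 14, but 12 of the 20 were from knock-out animal 1 and 3 from knock-out animal 5. Within knock-out animal 1 the medians were 34 with and 20 without an Ifnb1 UMI, and within knock-out animal 5 they were 29 and 23. The other 4 animals with such cells had 1 or 2 each. The receptor genes Ifnar1 and Ifnar2 gave 2398 and 4051 UMIs, and the lambda receptor gene Ifnlr1 gave 23, of which 14 lay in neutrophil-like cells.

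The 2 receptor genes had log2 fold changes near 0 in monocyte-like cells. Ifnar1 stood at 90.0 ± 11.8 CPM in wild-type (n = 5) and 89.9 ± 24.8 CPM in knock-out animals (n = 4), with a log2 of 0.20 ± 0.18 (edgeR adjusted p = 0.634), and Ifnar2 at 130 ± 22.2 and 127 ± 24.4 CPM (log2 0.12 ± 0.18, edgeR adjusted p = 0.811). Of the transcription factor genes downstream of the receptor, Stat2 had a log2 of 0.93 ± 0.45 and Irf9 of 0.25 ± 0.14, and neither passed. Of the 6 feedback inhibitor genes 0 passed and 4 were positive, with Socs1 at 1.05 ± 0.35 (edgeR adjusted p = 0.172) and Socs3 at -0.36 ± 0.22.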

How the data were processed

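Esophageal CD45+ cells of 10 hashtagged mice (5 wild type, 5 Il20rb knock-out) were profiled by 3′ single-cell RNA sequencing in 2 wells. The authors deposited a table of whole-number UMI counts per gene and cell, and a table that gives the genotype of each hashtag. The well, genotype and hashtag of each cell were read from its name in the count table. How hashtags were called and whether counting used strand is not given in the sources used here; Cell Ranger 6.0.1, R 4.0.5 and the genome build mm10 are named, without roles, per the submitters' processing notes. Every deposited cell had at least 1000 UMIs, so cells appear to have been filtered before deposit, and no further filter was applied. Each animal had 271 to 897 cells with a median of 3569 to 6034.5 UMIs. The 2 wells shared 2 cell barcodes, of which 0 came from the same animal. The number of sample columns left unused was 0.

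Cells were clustered with scanpy 1.11.5 (2000 variable genes, 30 principal components, 15 neighbours, Leiden resolution 3, igraph 0.11.9) after leaving out 325 interferon-related genes, which gave 43 clusters. A cluster was named where at least 3 of its type's markers (192 markers of 22 types) led by a log2 fold of 1. Scrublet called 3 doublets (0.05%), which is too few for a working caller, so none were removed and an alternative leaves out the 5% of cells with the highest scores. For heterogeneity, cells were thinned to 1000 UMIs.

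UMIs were summed per animal and class where an animal had 10 or more cells, and genotypes were compared where each had 3 or more such animals, with edgeR 4.0.16 (filterByExpr, TMM, robust quasi-likelihood test, R 4.3.3) and Benjamini-Hochberg adjustment over all genes tested, at 0.05. DESeq2 1.42.0 was an alternative, with relative log expression scaling, no filter on low counts, a non-robust fit, single wells, each animal left out, a lower resolution and at least 20 cells. P-values measure the spread between animals. On simulated counts, edgeR recovered 30% of 2-fold and 85% of 4-fold changes in monocyte-like cells (5203 genes). The simulation gave every gene the same fixed spread between animals, which was not fitted to the members. These shares therefore do not give the power of the test for the members, which varied strongly between animals. The standard error of a log2 fold change was its size over the square root of the test's F. Values per animal are given for members past the edgeR threshold in any class and for the 3 members of lowest p in all CD45+, monocyte-like, macrophage-like and unnamed myeloid cells (neutrophil-like cells could not be tested), and levels over classes for a set list of members. Genes like the members were ranked by the correlation of log UMIs, centred within animal, over monocyte-like cells. Trim30a, Ifi44, Phf11b and Phf11d levels over classes, Dhx58, Ifi35 and the members named in nonclassical monocyte-like cells fell outside this rule and were chosen after their values were seen. The members and lists were chosen with earlier results of these data known. The count over the genes of the receptor's signalling cascade is not reported here.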

Additional observations from a re-analysis of the deposited data

Results flagged for a closer look

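By Dixon's test of the gap to the nearest animal, at the 95% level, 6 of 54 groups of values tested were flagged. In each of them wild-type animal 1 stood apart from the other 4 wild-type animals. Chance alone flags about 1 in 20 separate groups, but these groups share animals and cells. The number flagged therefore cannot be set against chance. In all CD45+ cells its sum of the 42 members was 14489 CPM, against 1480 to 4166 CPM in the others. Without monocyte-like and neutrophil-like cells its sum was 6332 CPM against 1284 to 2144 CPM. The same held in T-like cells (7455 CPM against 1023 to 1696 CPM) and in cDC2-like cells (8089 CPM against 1194 to 2426 CPM). Among named members it held in all CD45+ cells for Bst2 (790.04 CPM against 237 to 341 CPM) and Phf11a (56.7 CPM against 10.2 to 21.3 CPM). This animal also had the largest share of neutrophil-like cells, 35.3%; the part of this in the values was not tested.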

How the results depend on the processing

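No paired analysis was possible because the animals of the 2 genotypes carry different hashtags and share no replicate number. Of 326 alternative values of named log2 fold changes, 0 changed sign, 20 gained and 37 lost the threshold. With DESeq2 the members called numbered 8 in monocyte-like, 3 in nonclassical monocyte-like and 0 in cDC1-like cells (1.6%, 0.627% and 0.0488% of genes); without the filter on low counts they numbered 15, 14 and 3 (2.54%, 0.47% and 0.102%), with 1 in cDC2-like and 2 in unnamed myeloid cells (0.264% and 0.191%). Well 1 alone gave 2 in monocyte-like and 1 in nonclassical monocyte-like cells (0.756% and 0.216%), at least 20 cells per animal gave 2 in monocyte-like cells (1.82%), leaving out high doublet scores gave 2 in nonclassical monocyte-like (0.331%) and 0 in cDC1-like cells, and the non-robust fit gave 0 in cDC1-like cells. On leaving out 1 animal the count ran from 0 to 14 in monocyte-like cells (14 without wild-type animal 1, where 5.37% of genes were called, 2 without knock-out animal 2, with 1.82%). It ran from 0 to 9 in nonclassical monocyte-like cells (9 without knock-out animal 2, with 1.61%, 2 without wild-type animal 1, with 0.484%). In cDC1-like cells it ran from 0 to 2 (2 without knock-out animal 3, with 0.356%) and in unnamed myeloid cells from 0 to 1 (1 without knock-out animal 3, with 0.0771%). For the interaction with ILC2-like cells it ran from 0 to 2 (2 without knock-out animal 2). The share of all genes called in that interaction fit is not given here, so its count cannot be judged. The number of positive members stayed within 1.5 times in 147 of 170 alternatives, although the number of members tested also changed between them. In cDC2-like cells it fell to 22 of 36 without knock-out animal 5. On leaving out 1 animal it fell as low as 2 in ILC2-like and 1 in T-like cells, where few members were tested. The lowest positive share over the alternatives was 25%. At the 95th percentile (42 UMIs of 1000) the mean share of cells was 0.211% in wild-type and 4.95% in knock-out monocyte-like cells, where the genotypes then overlapped, and 12.4% in 5 wild-type (0% to 47.6%) and 67.4% in 2 knock-out animals in neutrophil-like cells. Unless the alternative itself changes the samples or genes tested, the cause was not tested. The smallest class sum tested held 34483 UMIs, which limits low genes in T-like cells most.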

Other observations

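Among genes outside the members, 3 interferon-inducible GTPase genes, whose products attack the vacuoles of intracellular pathogens, were higher in knock-out monocyte-like cells. Gbp3 stood at 31.7 ± 8.62 CPM in wild-type (SD, n = 5) and 75.4 ± 11.2 CPM in knock-out animals (n = 4; log2 1.28 ± 0.23 (SE), edgeR adjusted p = 0.0446). Gbp7 stood at 84.6 ± 23.1 and 170 ± 42.3 CPM (log2 1.16 ± 0.22, edgeR adjusted p = 0.0446). Gbp5 stood at 33.1 ± 16.1 and 84.4 ± 35.5 CPM (log2 1.60 ± 0.32, edgeR adjusted p = 0.0491). They were 3 of 10 tested genes of the GTPase list, all 10 of which were positive with a median log2 of 1.24; of all 5203 genes 0.346% were called higher in knock-out cells and 47.7% were positive. Each of the 3 calls was lost in the non-robust fit, in well 1 alone and when any 1 of 7 animals was left out (wild-type animals 2 to 5, knock-out animals 1, 4 and 5), with adjusted p up to 0.288. Interferon-gamma itself (Ifng, 99 UMIs) lay mainly in T-like cells (74 UMIs) and NK-like cells (24 UMIs).

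Of the chemokine and sensor lists, 0 genes passed in monocyte-like cells. Cxcl10, which attracts T cells, stood at 1096 ± 660 CPM in wild-type and 2084 ± 1511 CPM in knock-out animals (log2 1.06 ± 0.77, edgeR adjusted p = 0.544). Ccl12 stood at 637 ± 442 and 1688 ± 749 CPM (log2 1.50 ± 0.69, edgeR adjusted p = 0.327). Of 10 tested sensor and adaptor genes 8 were positive, among them Cgas (log2 1.02 ± 0.31, edgeR adjusted p = 0.143) and Irf8 (log2 1.04 ± 0.26, edgeR adjusted p = 0.0915).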
